A study of Homo sapiens with 28 samples.

Results

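The response to RSL3 was taken as a main effect over 3 lipid backgrounds in HT-1080 cells, a human fibrosarcoma line labelled wild type. It compared 12 libraries from cells given RSL3 with 12 matched libraries without it, and the background entered the model as a block. These are 24 of the 28 libraries of the study. The groups were 10 nM RSL3 and its DMSO vehicle, 10 nM RSL3 with 80 µM linoleic acid (RSL3+LA) and 80 µM linoleic acid alone (LA), and 10 nM RSL3 with 80 µM of an 18:2 conjugated linoleic acid (RSL3+CLA18:2) and that acid alone at 80 µM (CLA18:2). Each of these 6 groups had 4 libraries, described in the series text as independent replicates, and exposure lasted overnight. The 4 libraries with 5 µM CLA18:3 had no partner with RSL3 and were left out. The comparison asks which genes moved the same way with RSL3 whether or not a fatty acid was added, and genes were sought among all 16050 tested of 60286 listed.

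RSL3 is an electrophilic small molecule that inactivates GPX4, the selenoenzyme that reduces phospholipid hydroperoxides with glutathione. Loss of this activity lets iron-driven peroxidation of polyunsaturated membrane lipids proceed, which can end in ferroptosis. LA and CLA18:2 are isomers that differ in where their double bonds sit: a methylene lies between them in LA, while in a conjugated acid they alternate directly with single bonds. Cells under electrophile or peroxide stress commonly use the transcription factor NRF2, which drives genes of glutathione synthesis, heme breakdown and iron storage, and the immediate early AP-1 factors of the FOS and JUN families.

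The promoters of FOS, FOSB and EGR1 are shown because these 3 immediate early genes were among the 6 largest increases in genes with a mean level of at least 2 CPM. Each sequence is the 250 bases before the RefSeq gene start on GRCh38.p14, 5′ to 3′. Capitals mark matches on either strand to TGACG, the core letters of the cAMP response element, and in EGR1 also the CArG box bound by serum response factor.
FOS, chr14:75278578-75278827, plus strand: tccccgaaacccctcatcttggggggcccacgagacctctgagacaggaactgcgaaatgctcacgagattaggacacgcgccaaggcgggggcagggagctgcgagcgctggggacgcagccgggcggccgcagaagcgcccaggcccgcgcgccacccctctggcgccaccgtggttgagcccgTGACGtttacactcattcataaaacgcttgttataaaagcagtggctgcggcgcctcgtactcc
FOSB, chr19:45467746-45467995, plus strand: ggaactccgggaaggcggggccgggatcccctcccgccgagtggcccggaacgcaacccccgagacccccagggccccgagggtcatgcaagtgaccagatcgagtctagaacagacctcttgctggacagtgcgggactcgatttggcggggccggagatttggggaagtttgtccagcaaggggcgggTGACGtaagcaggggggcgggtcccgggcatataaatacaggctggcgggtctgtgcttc
EGR1, chr5:138465229-138465478, plus strand: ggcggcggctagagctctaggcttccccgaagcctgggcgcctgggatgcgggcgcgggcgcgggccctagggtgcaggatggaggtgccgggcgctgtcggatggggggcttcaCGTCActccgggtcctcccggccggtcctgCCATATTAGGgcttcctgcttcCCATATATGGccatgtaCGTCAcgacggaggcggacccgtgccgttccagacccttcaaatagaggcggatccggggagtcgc
The FOS window held TGACG at 64 to 60 bases before the start, and the FOSB window at 60 to 56 bases before it. The EGR1 window held it at 135 to 131 and 66 to 62 bases, and CArG boxes at 105 to 96 and 83 to 74 bases. Windows were found for 13 of the 16 genes looked up, which were EGR1 and the 15 genes, described further on, that were called under every setting. These 13 genes have 21 windows, since some have several starts. TGACG was in 7 of the 21 windows, against 21.2% of 35114 windows of the same length. TGACNNNGC or TGAGNNNGC, the antioxidant response element core, was in 6 of the 21 (23.9% of all windows), the AP-1 site TGANTCA in 3 (6.57%) and a CArG box in 1 (1.16%). TGACG can form the first letters of TGACNNNGC, but none of the 3 windows shown held either form of that core or the AP-1 site.

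Library totals ran from 16226270 to 24286824 counts. Genes with a count at a common total numbered 21396 on average with RSL3 and 22225 without, a difference of -829 (exact permutation test within backgrounds, two-sided, p = 0.00525, adjusted over 3 library measures 0.0158). RSL3+CLA18:2 libraries 3 and 4 stood apart with the fewest detected genes and the widest residuals, and the biological coefficient of variation was 15.1% in that group, against 8.93% in CLA18:2 and 4.49% in DMSO. Mitochondrially encoded mRNAs took 0.263% to 1.93% of counts with RSL3 and 0.312% to 1.49% without. Of 9 mesenchymal markers 8 were tested, with summed levels of 12305 to 14990.0 CPM with RSL3 and 12490.4 to 14629.6 CPM without. Of the epithelial markers 3 of 8 were tested, summing to 462 to 698 CPM with RSL3 and 429 to 713 CPM without, nearly all of it KRT8. None of 7 blood cell markers passed the filter, and they summed to at most 0.973 CPM with RSL3 and 0.338 CPM without. Of 5 endothelial markers 1 passed, and the 5 summed to 1.09 to 2.73 CPM with RSL3 and 1.11 to 2.56 CPM without. Samples with LA alone and with CLA18:2 alone stand later in the series than the rest, and the labels give no batch, so a batch cannot be told apart from the groups there. These are the libraries without RSL3 of both fatty acid pairs. In those pairs, and so in part of the pooled effect, RSL3 and such a batch cannot be told apart. The p-values measure only the spread between these libraries. In bulk RNA, fewer cells with a transcript and less of it per cell cannot be told apart.

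Across the 3 backgrounds, 554 genes passed the pooled test (edgeR quasi-likelihood, Benjamini-Hochberg adjusted p below 0.05), which is 3.45% of genes tested. Of these, 332 were higher with RSL3 (2.07%) and 222 lower (1.38%). A change of the same direction in all 3 backgrounds was found for 525 of the 554 (3.27% of genes tested), 315 higher (1.96%) and 210 lower (1.31%). With no call required, 29.4% of all genes had the same sign in the 3 backgrounds. The pooled test used these same libraries and favours genes of the same sign, so setting these shares side by side does not measure sharing. Signs read in libraries that a call did not use are given at the end of the Results. Most shared changes were small: 21 of the 525 reached 1.5-fold and 11 reached 2-fold. Of genes averaging at least 2 CPM, only FOS, FOSB, HRAS and HMOX1 reached 2-fold. Only ATF3, EGR1 and CXCL3 joined them at 1.5-fold, and the rest of the 21 averaged below 2 CPM. The size differed with the background, with a median of 0.11 on the log2 scale for RSL3 against DMSO, 0.11 for RSL3+LA against LA and 0.29 for RSL3+CLA18:2 against CLA18:2. The change was largest with CLA18:2 for 424 of the 525 genes, without fatty acid for 54 and with LA for 47. These genes were chosen from the same libraries, and 439 of the 554 also passed against CLA18:2. The sizes therefore do not compare the backgrounds independently. The pooled count of 554 leaned on the CLA18:2 background. It fell to 61 with CLA18:2 and RSL3+CLA18:2 left out, and 33 of those were among the 554. Without RSL3+CLA18:2 libraries 3 and 4 it was 143. Leaving out CLA18:2 replicate 2, 3 or 4 gave 279, 243 and 348 calls, 271, 240 and 340 of them of the same direction.

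FOS, FOSB, HMOX1 and ATF3 passed the test within each background, all higher with RSL3 (4 genes, 0.0249% of those tested). In single backgrounds, 39 genes passed for RSL3 against DMSO (0.243%, 31 higher and 8 lower), 10 for RSL3+LA against LA (0.0623%, 8 higher and 2 lower) and 2394 for RSL3+CLA18:2 against CLA18:2 (14.9%, 1151 higher and 1243 lower). The first of these counts was 23 without DMSO replicate 3 and 25 without RSL3 replicate 3. The LA count ranged between 4 and 12 over the leave-one-out fits, with 4 to 6 calls without RSL3+LA replicate 1, 2 or 3, LA replicate 1, 3 or 4, or CLA18:2 replicate 3. Of the 554 pooled genes, 106 passed in no single background.

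FOS (chr14:75278774-75282230, protein-coding), a subunit of AP-1, had the largest pooled change among genes averaging at least 2 CPM. CPM are read counts divided by the library total and scaled by TMM factors. FOS had 4.44, 4.85, 3.26 and 6.08 CPM in RSL3 libraries, against 0.635, 0.512, 0.604 and 0.169 CPM in DMSO libraries. With LA, FOS had 5.85, 5.26, 2.97 and 3.87 CPM in RSL3+LA libraries, against 0.565, 0.478, 0.593 and 1.05 CPM in LA libraries. With CLA18:2, FOS had 60.2, 60.7, 67.7 and 62.9 CPM in RSL3+CLA18:2 libraries, against 2.48, 2.78, 2.75 and 2.17 CPM in CLA18:2 libraries. No library with RSL3 overlapped its match in any background, and levels with RSL3+CLA18:2 were far above those of the other groups. The pooled log2 fold change was 3.97 ± 0.19 (SE, n = 12 against 12, adjusted p = 2.5e-15), or 15.7-fold. It was 3.23 ± 0.27 against DMSO, 2.70 ± 0.25 against LA and 4.62 ± 0.18 against CLA18:2. These 3 differed (RSL3-by-background test, adjusted p = 0.0011). Here and below, the pooled value comes from its own fit and is not the mean of the 3.

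FOSB (chr19:45467995-45475179, protein-coding), a close relative of FOS, followed it. FOSB had 7.24, 6.86, 5.99 and 5.21 CPM in RSL3 libraries, against 2.65, 2.61, 2.98 and 2.48 CPM in DMSO libraries. With LA, FOSB had 6.17, 7.2, 5.53 and 4.22 CPM in RSL3+LA libraries, against 1.95, 2.74, 2.05 and 1.78 CPM in LA libraries. With CLA18:2, FOSB had 39.5, 34.9, 36.8 and 44.5 CPM in RSL3+CLA18:2 libraries, against 3.21, 3.55, 4.62 and 4.68 CPM in CLA18:2 libraries. The groups did not overlap in any background. The pooled change was 2.13 ± 0.20 (adjusted p = 3.1e-08). It was 1.23 ± 0.16 against DMSO, 1.44 ± 0.17 against LA and 3.29 ± 0.15 against CLA18:2 (RSL3-by-background adjusted p = 4.2e-07).

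HMOX1 (chr22:35380361-35394214, protein-coding), the heme oxygenase that releases iron from heme, differed from FOS and FOSB in where its increase was largest. HMOX1 had 124, 125, 127 and 156 CPM in RSL3 libraries, against 29.9, 26.5, 27.3 and 24.6 CPM in DMSO libraries. With LA, HMOX1 had 115, 112, 81.4 and 79.5 CPM in RSL3+LA libraries, against 50.02, 47.1, 58.6 and 58.7 CPM in LA libraries. With CLA18:2, HMOX1 had 818, 719.9, 675 and 777 CPM in RSL3+CLA18:2 libraries, against 381, 308, 319.9 and 296 CPM in CLA18:2 libraries. The groups did not overlap in any background, although CLA18:2 alone lay above every RSL3 and RSL3+LA library. The pooled change was 1.42 ± 0.12 (adjusted p = 1.1e-08). It was 2.29 ± 0.11 against DMSO, 0.86 ± 0.11 against LA and 1.196 ± 0.10 against CLA18:2 (RSL3-by-background adjusted p = 1.0e-06).

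ATF3 (chr1:212565334-212620777, protein-coding), a stress-induced transcription factor of the ATF family, rose least of the 4. ATF3 had 27.6, 29.1, 31.5 and 30.1 CPM in RSL3 libraries, against 16.5, 17.8, 14.7 and 17.6 CPM in DMSO libraries. With LA, ATF3 had 17.9, 17.4, 14.3 and 15.2 CPM in RSL3+LA libraries, against 13, 12.2, 10.1 and 11.3 CPM in LA libraries. With CLA18:2, ATF3 had 58.6, 50.8, 63.9 and 61.3 CPM in RSL3+CLA18:2 libraries, against 21.7, 20.04, 20.6 and 21.9 CPM in CLA18:2 libraries. Groups did not overlap within a background, and the gap was narrowest with LA. The pooled change was 0.96 ± 0.09 (adjusted p = 3.3e-08), with 0.83 ± 0.09 against DMSO, 0.47 ± 0.09 against LA (adjusted p = 0.035) and 1.48 ± 0.08 against CLA18:2 (RSL3-by-background adjusted p = 1.9e-05). The call against LA was lost in 8 of 35 alternative settings, with adjusted p up to 0.17. These were the fits without RSL3+LA replicate 1 or 2, LA replicate 2, 3 or 4, or CLA18:2 replicate 3, limma voom, and the fit of the 8 LA and RSL3+LA libraries alone.

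**Figure D1:**
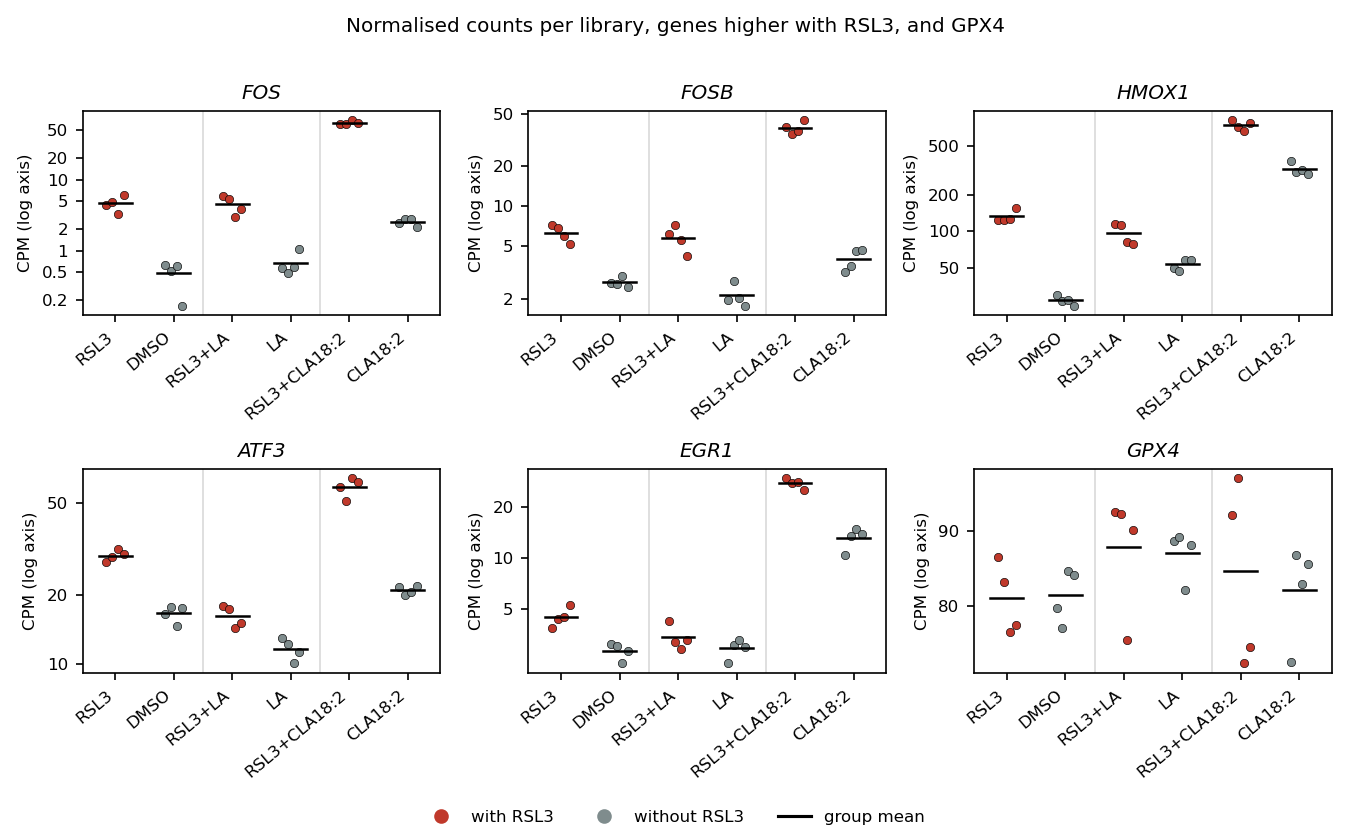
Normalised counts (CPM, log axis) of 6 genes in each of the 24 libraries, with RSL3 in red, without RSL3 in grey and group means as lines. FOS, FOSB, HMOX1 and ATF3 do not overlap between a group with RSL3 and its match, EGR1 overlaps with LA, and GPX4 overlaps in all 3 backgrounds.

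EGR1 (chr5:138465490-138469315, protein-coding) encodes an immediate early zinc finger factor. EGR1 had 3.83, 4.34, 4.47 and 5.27 CPM in RSL3 libraries, against 3.07, 2.98, 2.37 and 2.81 CPM in DMSO libraries. With LA, EGR1 had 4.22, 3.18, 2.87 and 3.25 CPM in RSL3+LA libraries, against 2.36, 3.04, 3.24 and 2.96 CPM in LA libraries. With CLA18:2, EGR1 had 29.8, 27.9, 28.2 and 25.3 CPM in RSL3+CLA18:2 libraries, against 10.4, 13.6, 14.9 and 14 CPM in CLA18:2 libraries. The groups did not overlap against DMSO and against CLA18:2, but overlapped with LA. EGR1 rose by 0.73 ± 0.10 in the pooled test (adjusted p = 6.0e-05). Single-background changes were 0.68 ± 0.15 against DMSO, 0.22 ± 0.15 against LA (adjusted p = 0.71) and 1.07 ± 0.12 against CLA18:2, and they differed (RSL3-by-background adjusted p = 0.016). With the CLA18:2 background left out the pooled change was 0.45 and the call was lost (adjusted p = 0.15).

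The gene lists used from here on were chosen with earlier results of these data known, so counts in them describe these data only. Of 27 immediate early and AP-1 genes tested, 7 rose and 1 fell over the 3 backgrounds (2.07% and 1.38% of all genes did). The list median was 0.05 against -0.00 for all genes. Besides FOS, FOSB, ATF3 and EGR1, the risers were KLF4 (0.41 ± 0.10, adjusted p = 0.026) and KLF10 (0.15 ± 0.03), both zinc finger factors, and ZFP36 (0.29 ± 0.08), which promotes decay of AU-rich mRNAs. FOSL2, another FOS relative, fell by 0.12 (SE 0.03, adjusted p = 0.0092), with -0.10, -0.13 and -0.13 against DMSO, LA and CLA18:2. The KLF4 call was lost without CLA18:2 replicate 3, and the ZFP36 call in 7 of the 24 leave-one-out fits. The list had 5 higher and 1 lower without RSL3+CLA18:2 libraries 3 and 4 (73 and 70 of all 16747 genes). With the CLA18:2 background left out, 3 of 26 tested were higher. In that fit 38 of all 15530 genes were higher and 23 lower. The same all-gene counts apply to the lists below. CSRNP1, a nuclear protein induced by AXIN1, rose by 0.20 ± 0.03 (adjusted p = 0.00071), with 55.4 to 61.2 CPM in RSL3 against 50.7 to 53.7 CPM in DMSO and no overlap in the other backgrounds. PLAUR encodes the urokinase receptor. PLAUR lay at 221 to 251 CPM with RSL3 against 194 to 205 CPM in DMSO, at 259 to 274 CPM with RSL3+LA against 245 to 249.97 CPM with LA, and at 379 to 397 CPM with RSL3+CLA18:2 against 316 to 341 CPM with CLA18:2. Its groups did not overlap in any background, and it rose by 0.20 ± 0.03 (adjusted p = 2.3e-05). Among 16 NF-kappaB and cytokine genes 2 rose and 1 fell (2.07% and 1.38% of all genes did). NFKBIA, the inhibitor of NF-kappaB, rose by 0.36 ± 0.06 (adjusted p = 0.0030) and the chemokine gene CXCL3 by 0.59 ± 0.13 (adjusted p = 0.013). IL1A, which encodes interleukin-1 alpha, fell by 0.67 (SE 0.19, adjusted p = 0.040), a call lost in 13 of the 24 leave-one-out fits. With CLA18:2 left out the NFKBIA and CXCL3 calls were lost. CXCL3 also missed the threshold without RSL3+CLA18:2 libraries 3 and 4 (adjusted p = 0.058).

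HRAS (chr11:532242-537287, protein-coding), which encodes a RAS GTPase, ranked among the largest increases, but its libraries scattered widely. HRAS had 5.29, 9.42, 10.4 and 8.85 CPM in RSL3 libraries, against 3.7, 3.45, 2.76 and 4.11 CPM in DMSO libraries. With LA, HRAS had 8.43, 10.4, 12 and 3.87 CPM in RSL3+LA libraries, against 2.98, 10.8, 4.05 and 3.28 CPM in LA libraries. With CLA18:2, HRAS had 59.9, 28.3, 10.3 and 3.4 CPM in RSL3+CLA18:2 libraries, against 11.6, 2.92, 2.81 and 2.4 CPM in CLA18:2 libraries. Groups overlapped with LA and with CLA18:2, and single libraries stood high in RSL3+CLA18:2, LA and CLA18:2. The pooled change was 1.47 ± 0.34 (adjusted p = 0.016), and it missed the threshold in a robust fit (adjusted p = 0.056), and with the background without fatty acid (adjusted p = 0.062) or the CLA18:2 background (adjusted p = 0.073) left out. The remaining entries among the 10 largest increases were 3 genes listed by identifier. ENSG00000206567 (lincRNA, overlapping another locus) rose by 0.58 ± 0.14, ENSG00000263731 (lincRNA) by 0.54 ± 0.14 and ENSG00000213862 (processed pseudogene, whose reads may come from its parent gene) by 0.48 ± 0.12. The ENSG00000263731 call was lost in 10 of the 24 leave-one-out fits, and the ENSG00000213862 call without CLA18:2 replicate 2 or 3. ENSG00000206567 was lost without RSL3+CLA18:2 libraries 3 and 4.

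GPX4, the protein RSL3 binds, did not pass the pooled test at the mRNA level. GPX4 had 86.3, 83, 76.8 and 77.6 CPM in RSL3 libraries, against 79.7, 77.3, 84.5 and 83.9 CPM in DMSO libraries. With LA, GPX4 had 92.7, 92.3, 75.8 and 90.1 CPM in RSL3+LA libraries, against 88.6, 89.1, 82 and 88.1 CPM in LA libraries. With CLA18:2, GPX4 had 92.2, 97.7, 73.1 and 75.1 CPM in RSL3+CLA18:2 libraries, against 73.3, 86.6, 82.8 and 85.4 CPM in CLA18:2 libraries. The groups overlapped in every background. The pooled change was 0.02 ± 0.04 (95% interval -0.07 to 0.10, adjusted p = 0.90). Against CLA18:2 it was 0.04 (adjusted p = 0.78), but 0.22 without RSL3+CLA18:2 libraries 3 and 4, which passed the threshold (adjusted p = 0.049). An inhibitor of the protein need not alter its mRNA, so these values do not check the treatment labels. Of 37 ferroptosis regulators tested, 2 rose (2.07% of all genes did), HMOX1 and the ferritin heavy chain gene FTH1, with a list median of 0.00. FTH1, which stores iron and has many processed pseudogenes that may share reads, rose by 0.19 ± 0.05 (adjusted p = 0.041) but not with CLA18:2 (-0.01 ± 0.08), and the call was lost in 12 of the 24 leave-one-out fits. Iron handling had 3 of 18 genes higher, the third being PCBP2, a cytosolic iron chaperone (0.13 ± 0.03, adjusted p = 0.017). The PCBP2 call was lost with limma voom, with a replicate block within each background, without RSL3+CLA18:2 libraries 3 and 4 (where 2 of the 18 were called), and with the LA or the CLA18:2 background left out. TFRC, the transferrin receptor, stood at -0.03 ± 0.03, ACSL4, which loads polyunsaturated acids into lipids, at 0.03 ± 0.03, AIFM2, a coenzyme Q reductase also named FSP1, at 0.03 ± 0.05, and PTGS2, a common ferroptosis marker, at -0.08 ± 0.08, with adjusted p from 0.62 to 0.80.

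Of 35 NRF2 targets, 6 rose (2.07% of all genes did) and the list median was 0.06. GCLM (chr1:93885205-93909456, protein-coding) encodes the modifier subunit of glutamate-cysteine ligase, the first enzyme of glutathione synthesis. GCLM had 90.7, 90.3, 105 and 105 CPM in RSL3 libraries, against 79.1, 72.4, 72.3 and 76.7 CPM in DMSO libraries. With LA, GCLM had 108, 111, 101 and 102 CPM in RSL3+LA libraries, against 81.8, 81.1, 98 and 91.9 CPM in LA libraries. With CLA18:2, GCLM had 281, 294, 305 and 290.5 CPM in RSL3+CLA18:2 libraries, against 266, 237, 238 and 236 CPM in CLA18:2 libraries. The groups did not overlap in any background. GCLM rose by 0.30 ± 0.04 (adjusted p = 5.1e-06). Its changes of 0.38 ± 0.06, 0.26 ± 0.06 and 0.26 ± 0.06 against DMSO, LA and CLA18:2 did not differ past the threshold (RSL3-by-background adjusted p = 0.58). NQO1, a quinone reductase, rose by 0.19 ± 0.04 (adjusted p = 0.0084), a call lost when the pair without fatty acid was left out (adjusted p = 0.078). TKT (0.10 ± 0.02, adjusted p = 0.014) and TALDO1 (0.09 ± 0.03, adjusted p = 0.040), both of the pentose phosphate pathway, rose slightly, and the TALDO1 call was lost in 10 of the 24 leave-one-out fits. The list had 6 higher without RSL3+CLA18:2 libraries 3 and 4, against 73 of all 16747 genes in that fit. With the CLA18:2 background left out it had 11 higher, against 38 of all 15530 genes. PPP1R15A, a stress gene outside that list, directs dephosphorylation of eIF2alpha. PPP1R15A lay at 110.3 to 127 CPM with RSL3 against 88.6 to 94.8 CPM in DMSO, at 96.9 to 108 CPM with RSL3+LA against 87.9 to 100.2 CPM with LA, and at 222 to 233 CPM with RSL3+CLA18:2 against 190.4 to 200.4 CPM with CLA18:2. Its groups overlapped with LA only, and it rose by 0.23 ± 0.03 (adjusted p = 8.3e-05). FERMT1 encodes an integrin activator. FERMT1 lay at 99.7 to 110.3 CPM with RSL3 against 90.4 to 92.6 CPM in DMSO, at 97.8 to 106 CPM with RSL3+LA against 87.9 to 99.6 CPM with LA, and at 106 to 115 CPM with RSL3+CLA18:2 against 80.7 to 89.2 CPM with CLA18:2. It also overlapped only with LA, and rose by 0.22 ± 0.03 (adjusted p = 0.00021).

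COL1A1 (chr17:50183289-50201632, protein-coding), the alpha 1 chain of type I collagen, had the smallest pooled p among the genes that fell. COL1A1 had 305, 314, 273 and 280.1 CPM in RSL3 libraries, against 333, 401, 409 and 399 CPM in DMSO libraries. With LA, COL1A1 had 255, 234, 304 and 291 CPM in RSL3+LA libraries, against 317, 352, 310.3 and 340.4 CPM in LA libraries. With CLA18:2, COL1A1 had 133, 135, 131 and 116 CPM in RSL3+CLA18:2 libraries, against 153, 174, 189 and 174 CPM in CLA18:2 libraries. No group with RSL3 overlapped its match, and both CLA18:2 groups lay below the rest. The pooled change was -0.37 ± 0.04 (adjusted p = 5.1e-06), with -0.40 ± 0.07, -0.28 ± 0.07 and -0.42 ± 0.08 in the 3 backgrounds (RSL3-by-background adjusted p = 0.69). Of 36 collagen and matrix genes 3 fell and 1 rose (1.38% and 2.07% of all genes did), with a median of -0.04. SPARC, a collagen-binding matrix protein, fell by 0.10 (SE 0.02, adjusted p = 0.013), while TIMP1, a metalloproteinase inhibitor, rose by 0.17 ± 0.03 (adjusted p = 0.0041). COL1A2, the partner chain, fell by 0.20 (SE 0.05, adjusted p = 0.029) but stood at 0.01 ± 0.07 against DMSO, and its call was lost in 5 of the 24 leave-one-out fits. Among the mesenchymal markers 3 fell (COL1A1, COL1A2 and SPARC) and 2 rose, the intermediate filament gene VIM (0.14 ± 0.02, adjusted p = 0.0010) and the hyaluronan receptor gene CD44 (0.10 ± 0.03, adjusted p = 0.032), whose call was lost in 8 of the 24 leave-one-out fits.

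SMAD3 (chr15:67063763-67195195, protein-coding) carries TGF-beta signals to the nucleus. SMAD3 had 90.8, 92, 86.9 and 93.6 CPM in RSL3 libraries, against 94.1, 98.6, 102 and 98.4 CPM in DMSO libraries. With LA, SMAD3 had 105, 99.7, 90.9 and 101 CPM in RSL3+LA libraries, against 112, 118, 110.4 and 114 CPM in LA libraries. With CLA18:2, SMAD3 had 51.1, 52.5, 53.7 and 53.9 CPM in RSL3+CLA18:2 libraries, against 67.6, 66.3, 74.5 and 72.7 CPM in CLA18:2 libraries. Its groups did not overlap in any background. SMAD3 fell by 0.24 (SE 0.04, adjusted p = 0.00022), and the decrease differed between backgrounds (RSL3-by-background adjusted p = 0.016). It was -0.11 ± 0.05 against DMSO, -0.20 ± 0.05 against LA and -0.41 ± 0.05 against CLA18:2. HMGCS1 encodes a cytosolic enzyme of cholesterol synthesis. HMGCS1 had 189, 182, 190.3 and 181 CPM in RSL3 libraries, against 210.1, 208, 204 and 210.4 CPM in DMSO libraries. With LA, HMGCS1 had 102, 105, 104 and 117 CPM in RSL3+LA libraries, against 141, 130.1, 128 and 120.3 CPM in LA libraries. With CLA18:2, HMGCS1 had 88.9, 79.9, 79.9 and 80.9 CPM in RSL3+CLA18:2 libraries, against 93.5, 82.3, 86.7 and 86.6 CPM in CLA18:2 libraries. Groups overlapped only with CLA18:2, and levels were highest without fatty acid. HMGCS1 fell by 0.18 (SE 0.03, adjusted p = 0.0031). It was the only gene edgeR called of 24 of cholesterol synthesis, where 1.38% of all genes fell. DESeq2 called 1 higher and 1 lower, and the list median was -0.04. Within LA, 2 of the 24 were lower, and 2 of all 16050 genes were. Within CLA18:2, 4 of the 24 were higher and 1 lower, against 1151 and 1243 of all genes. The RSL3-by-background test called 5 of the 24 (5.46% of all genes).

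DOK1 encodes an adaptor of tyrosine kinase signalling. DOK1 lay at 103 to 116 CPM with RSL3 against 128 to 133 CPM in DMSO, at 91.6 to 116 CPM with RSL3+LA against 104 to 116 CPM with LA, and at 101 to 115 CPM with RSL3+CLA18:2 against 124 to 147 CPM with CLA18:2. Its groups overlapped only with LA, and it fell by 0.23 (SE 0.04, adjusted p = 0.0010). STK38L encodes a kinase of the NDR family. STK38L lay at 80.5 to 89.1 CPM with RSL3 against 96.4 to 103 CPM in DMSO, at 84.8 to 89.8 CPM with RSL3+LA against 87.2 to 99.1 CPM with LA, and at 78.2 to 84 CPM with RSL3+CLA18:2 against 94.3 to 107 CPM with CLA18:2. It too overlapped only with LA, and fell by 0.22 (SE 0.03, adjusted p = 0.00013). NDST1 encodes an enzyme that modifies heparan sulfate. NDST1 lay at 477 to 503 CPM with RSL3 against 506 to 552 CPM in DMSO, at 361 to 404 CPM with RSL3+LA against 414 to 433 CPM with LA, and at 285 to 331 CPM with RSL3+CLA18:2 against 332 to 368 CPM with CLA18:2. Its groups did not overlap in any background, and it fell by 0.14 (SE 0.03, adjusted p = 0.0044). SPOP fell by 0.18 in the pooled test (adjusted p = 0.0010), and its groups overlapped only with LA. With the CLA18:2 background left out it missed the threshold (adjusted p = 0.051).

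**Figure D2:**
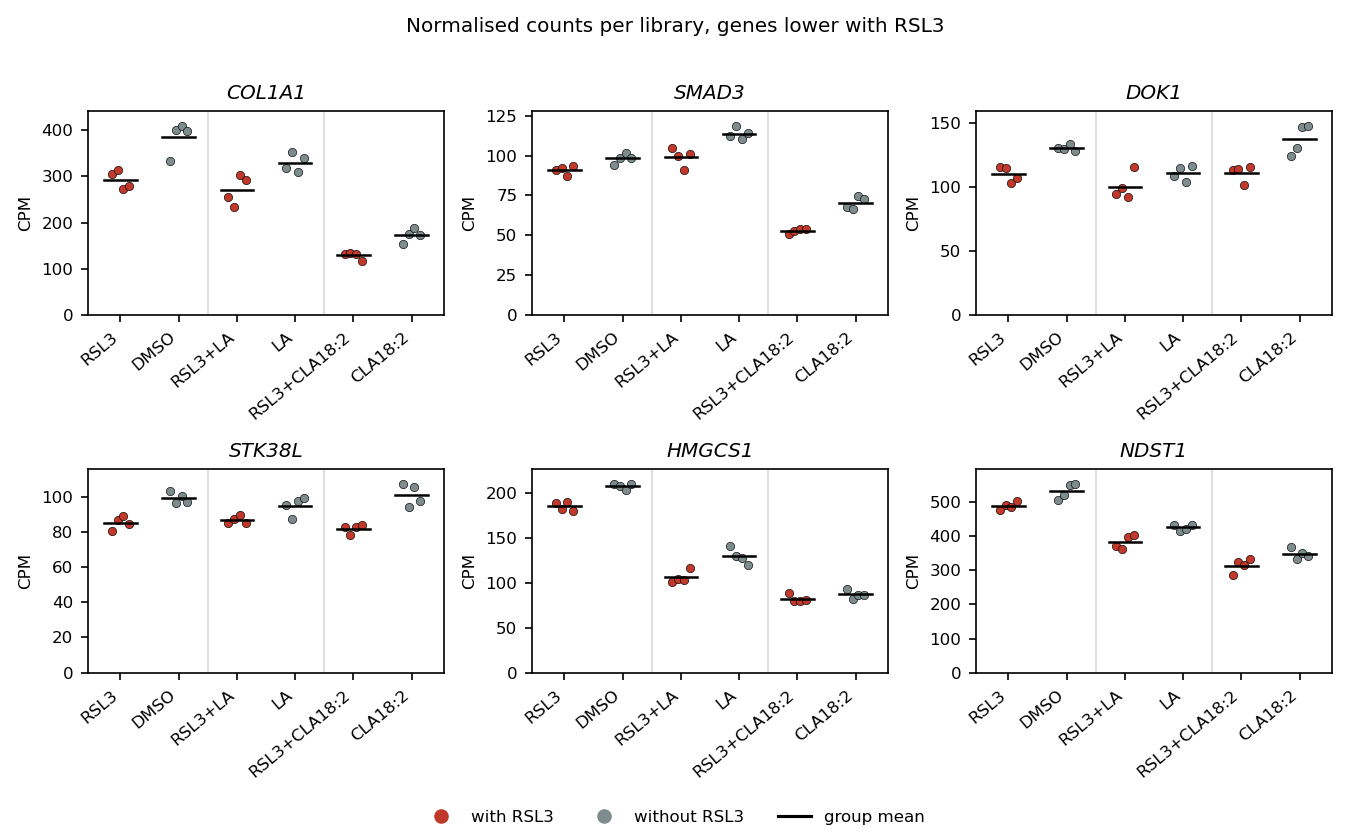
Normalised counts (CPM, linear axis from 0) of 6 genes that fell with RSL3, in each of the 24 libraries, with RSL3 in red, without RSL3 in grey and group means as lines. COL1A1, SMAD3 and NDST1 do not overlap between a group with RSL3 and its match in any background.

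The largest decreases by size, again among genes averaging at least 2 CPM, were in genes with few counts. ACTBL2 had 3.77, 4.06, 5.94 and 5.1 CPM in RSL3 libraries, against 6.82, 8.71, 8.11 and 6.08 CPM in DMSO libraries. With LA, ACTBL2 had 2.79, 3.03, 2.82 and 4.88 CPM in RSL3+LA libraries, against 4.67, 4.56, 3.78 and 3.97 CPM in LA libraries. With CLA18:2, ACTBL2 had 0.813, 1.74, 0.736 and 2.04 CPM in RSL3+CLA18:2 libraries, against 1.6, 1.53, 3.37 and 2.06 CPM in CLA18:2 libraries. ACTBL2 encodes an actin that closely resembles other actins, so shared reads leave it uncertain. Groups separated against DMSO alone, and the pooled change of -0.54 ± 0.15 (adjusted p = 0.035) was lost in 11 of the 24 leave-one-out fits.

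ENSG00000229953 is annotated as an antisense gene on chromosome 1. ENSG00000229953 had 2.92, 3.54, 2.68 and 3.96 CPM in RSL3 libraries, against 3.39, 4.01, 4.14 and 4.33 CPM in DMSO libraries. With LA, ENSG00000229953 had 4.32, 3.28, 2.72 and 3.41 CPM in RSL3+LA libraries, against 4.98, 3.43, 3.72 and 4.14 CPM in LA libraries. With CLA18:2, ENSG00000229953 had 4.07, 5.54, 7.18 and 7.31 CPM in RSL3+CLA18:2 libraries, against 14.5, 11.7, 9.43 and 10.03 CPM in CLA18:2 libraries. Groups separated only with CLA18:2, and it fell by 0.51 (SE 0.12, adjusted p = 0.016). No strand setting is given in the sources used here, so its reads cannot be told apart from those of its partner.

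PAX9 encodes a developmental transcription factor. PAX9 had 4.2, 4.52, 4.52 and 2.99 CPM in RSL3 libraries, against 4.92, 5.5, 4.66 and 5.01 CPM in DMSO libraries. With LA, PAX9 had 4.06, 2.88, 3.69 and 3.36 CPM in RSL3+LA libraries, against 4.78, 3.61, 6.26 and 3.93 CPM in LA libraries. With CLA18:2, PAX9 had 3.48, 1.79, 2.95 and 2.77 CPM in RSL3+CLA18:2 libraries, against 4.76, 4.7, 4.74 and 4.29 CPM in CLA18:2 libraries. Groups overlapped with LA. PAX9 fell by 0.48 (SE 0.11, adjusted p = 0.014). YPEL2 belongs to the yippee-like family and overlaps another locus. YPEL2 had 4.32, 5.08, 4.52 and 5.75 CPM in RSL3 libraries, against 4.39, 4.8, 5.91 and 5.12 CPM in DMSO libraries. With LA, YPEL2 had 4.96, 5.81, 3.95 and 3.87 CPM in RSL3+LA libraries, against 5.6, 5.26, 5.77 and 7.18 CPM in LA libraries. With CLA18:2, YPEL2 had 5.63, 4.67, 4.88 and 4.17 CPM in RSL3+CLA18:2 libraries, against 10.6, 9.49, 8.24 and 10.03 CPM in CLA18:2 libraries. Groups separated only with CLA18:2. YPEL2 fell by 0.48 (SE 0.11, adjusted p = 0.016), and with CLA18:2 the change was -0.99 ± 0.15, against -0.04 ± 0.15 in the pair without fatty acid (RSL3-by-background adjusted p = 0.013). The RSL3-by-background call was lost without RSL3+CLA18:2 libraries 3 and 4 (adjusted p = 0.066), and the pooled call with a replicate block within each background (adjusted p = 0.071).

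PAPPA2 encodes a protease of insulin-like growth factor binding proteins. PAPPA2 had 3.53, 2.85, 3.21 and 3.53 CPM in RSL3 libraries, against 3.92, 3.87, 4.1 and 3.04 CPM in DMSO libraries. With LA, PAPPA2 had 3.9, 4.77, 3.28 and 2.8 CPM in RSL3+LA libraries, against 4.73, 3.95, 2.86 and 4.62 CPM in LA libraries. With CLA18:2, PAPPA2 had 9.87, 7.34, 8.06 and 13.8 CPM in RSL3+CLA18:2 libraries, against 19.2, 17.7, 20.4 and 15.8 CPM in CLA18:2 libraries. Groups separated only with CLA18:2. PAPPA2 fell by 0.47 (SE 0.12, adjusted p = 0.029), a call lost in 6 leave-one-out fits. BMS1P23 is named as a pseudogene, so its reads may come from its parent. BMS1P23 had 2.68, 5.04, 4.47 and 4.07 CPM in RSL3 libraries, against 5.93, 4.14, 4.57 and 4.61 CPM in DMSO libraries. With LA, BMS1P23 had 5.11, 4.82, 4.3 and 4.12 CPM in RSL3+LA libraries, against 5.34, 6.3, 6.85 and 7.54 CPM in LA libraries. With CLA18:2, BMS1P23 had 8.13, 7.01, 5.48 and 6.22 CPM in RSL3+CLA18:2 libraries, against 10.8, 10.4, 8.12 and 10.9 CPM in CLA18:2 libraries. Groups separated only with LA, and it fell by 0.45 (SE 0.10, adjusted p = 0.0093). The remaining 4 of the 10 largest decreases, between -0.42 and -0.41, were RAB43, NUDT3 and KSR1, which overlap other loci, and the histone gene H4C8. KSR1 is a scaffold of the MAP kinase cascade. RAB43 was lost in 10 and H4C8 in 14 of the 24 leave-one-out fits. With the CLA18:2 background left out, none of these 10 decreases passed the threshold. Without RSL3+CLA18:2 libraries 3 and 4, of the 10 only BMS1P23 and KSR1 passed.

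Across all 39 alternative settings, 15 genes kept the pooled call and its sign, 9 higher and 6 lower. They were FOS, FOSB, HMOX1, ATF3, GCLM, PPP1R15A, FERMT1, PLAUR and CSRNP1 among the increases, and COL1A1, SMAD3, DOK1, STK38L, HMGCS1 and NDST1 among the decreases. This set was chosen after the values were seen, and FERMT1, PLAUR, CSRNP1 and NDST1 came in through it alone. Of the 15, 6 also passed the RSL3-by-background test, so their size differed between backgrounds, while the sign of the estimate was the same in all 3. Among these, FERMT1 and SMAD3 passed singly only against CLA18:2. Their adjusted p was 0.096 and 0.58 against DMSO, and 0.43 and 0.11 against LA. Libraries with RSL3 and without it failed to overlap, in one direction and in all 3 backgrounds, for 14 genes (0.0872% of those tested). These were 9 higher and 5 lower, and all 14 were among the 554. The 4 of them not yet named are UNG, a uracil glycosylase (0.19 ± 0.03), NT5DC2 (0.11 ± 0.02), the transcription factor gene NFIX (-0.15 ± 0.03) and ARMC7 (-0.25 ± 0.06), each still called in all 24 leave-one-out fits. With the CLA18:2 background left out UNG, NT5DC2 and ARMC7 did not pass (adjusted p = 0.12, 0.24 and 0.16), and NFIX did (adjusted p = 0.039).

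**Figure D3:**
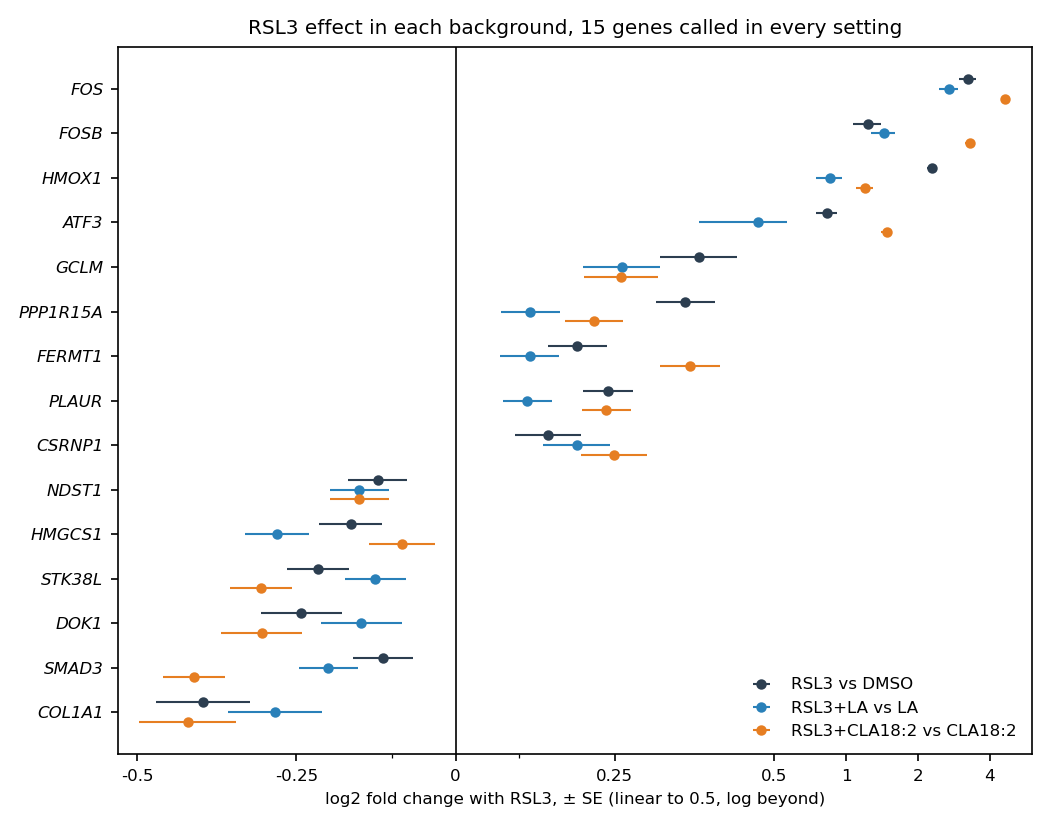
Log2 fold change with RSL3 and its SE (n = 4 against 4) in each background, for the 15 genes called in every setting. The axis is linear up to 0.5 and logarithmic beyond. All points of a gene lie on one side of 0, and FOS, FOSB and ATF3 are largest with CLA18:2 while HMOX1 is largest against DMSO.

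Of 37 DNA replication genes 20 rose in the pooled test, and of 29 mitotic genes 12 rose, against 2.07% of all genes, while 17 of each list did not pass. Both lists were chosen with earlier results of these data known, so an excess over that share is not independent evidence. Every member of both lists had a positive pooled change. The DNA replication median was 0.05 against DMSO, 0.04 against LA and 0.34 against CLA18:2. The mitosis medians were 0.05, 0.02 and 0.36. For all genes the 3 medians were 0.00, 0.00 and -0.02. RSL3+CLA18:2 against CLA18:2 alone had 34 DNA replication and 28 mitotic genes higher, against 1151 of all 16050 genes, and 25 and 22 members passed the RSL3-by-background test (background rate 5.46%). RRM2, a ribonucleotide reductase subunit, averaged 521 ± 9.70 CPM in RSL3+CLA18:2 and 369 ± 15.4 CPM in CLA18:2 (SD, n = 4). It averaged 465 ± 27.3 CPM in RSL3+LA and 445 ± 22.2 CPM in LA, and 568 ± 24.3 CPM in RSL3 and 535 ± 7.84 CPM in DMSO. Its pooled change was 0.21 ± 0.04 (adjusted p = 0.0079). With the CLA18:2 background left out, edgeR called 0 of the 37 and 0 of the 29, and at an unadjusted p below 0.05 7 and 1 were higher. Without RSL3+CLA18:2 libraries 3 and 4, edgeR called 2 and 0 in the pooled test. At an unadjusted p below 0.05 there were 23 and 22, and 32 and 27 were higher against CLA18:2. Of all 16747 genes in that fit, 73 were higher in the pooled test and 979 against CLA18:2. For fits with libraries left out, all genes meeting an unadjusted p below 0.05 were not counted, here and in the lists below. MCM4, PCNA and ORC1, parts of the replication machinery, and RRM2, CDC6, CDT1, FEN1 and MCM3 passed in every leave-one-out fit, and the other 12 replication calls were lost in 1 to 17 of the 24. Among the mitotic calls BIRC5, a chromosomal passenger protein, passed in each such fit and the other 11 were lost in 2 to 16 of them. The pooled counts were 22 and 18 with DESeq2 and 7 and 2 with limma voom.

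Among p53 targets the calls were decreases. Of 24 tested, 4 fell, against 1.38% of all genes. The median was -0.09, with -0.06, -0.07 and -0.14 in the backgrounds without fatty acid, with LA and with CLA18:2. CDKN1A, the cyclin-dependent kinase inhibitor p21, fell by 0.16 (SE 0.03, adjusted p = 0.0068). CDKN1A lay at 474 to 521 CPM with RSL3 against 514 to 545 CPM in DMSO, at 535 to 574 CPM with RSL3+LA against 556 to 595 CPM with LA, and at 556 to 619 CPM with RSL3+CLA18:2 against 731 to 755 CPM with CLA18:2. The groups separated only with CLA18:2. XPC, a DNA damage sensor, fell by 0.21 (SE 0.04), MDM2, the p53 ubiquitin ligase, by 0.16 (SE 0.04), and SESN1 by 0.18 (SE 0.05, adjusted p = 0.041), a call lost in 15 of the 24 leave-one-out fits. The count was 2 without RSL3+CLA18:2 libraries 3 and 4, where 70 of all 16747 genes fell. With the CLA18:2 background left out edgeR called 0, with 9 lower and 1 higher at an unadjusted p below 0.05.

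Of 50 cytosolic ribosomal protein genes 7 rose, by 0.08 to 0.15, against 2.07% of all genes. The list median was 0.05, with medians of 0.01 against DMSO, 0.03 against LA and 0.12 against CLA18:2. The risers were RPL7A, RPL15, RPL19, RPL23, RPLP0, RPLP2 and RPS27, which have many processed pseudogenes that share reads. DESeq2 called 11 and limma voom 3. The edgeR count was 1 without RSL3+CLA18:2 libraries 3 and 4, and 0 with the CLA18:2 background left out, where 7 were higher and 2 lower at an unadjusted p below 0.05. RPL15, RPL23, RPLP2, RPL7A, RPLP0 and RPS27 were lost in 9, 17, 6, 2, 4 and 1 of the 24 leave-one-out fits. Of 18 genes listed as cytosolic heat shock, the chaperone genes HSPA8 (0.13 ± 0.03) and HSPD1 (0.09 ± 0.02) rose, although the HSPD1 product is mitochondrial. Without RSL3+CLA18:2 libraries 3 and 4 edgeR called 0 of the 18, with 4 higher at an unadjusted p below 0.05, and with the CLA18:2 background left out it called 1. HSPA8 was lost in both and without the background that had no fatty acid. PDK1, TPI1 and ENO2 rose among 29 hypoxia and glycolysis genes, GLA among 30 of lysosome and autophagy, PSMB1 and PSMC6 among 32 of the proteasome, and MT2A among 5 metallothioneins, where 2.07% of all genes rose. With the CLA18:2 background left out edgeR called 0 hypoxia and 0 proteasome genes, with 8 higher in each list at an unadjusted p below 0.05, and 3 of lysosome and autophagy. Without RSL3+CLA18:2 libraries 3 and 4 it called 1 hypoxia and 0 proteasome genes, with 7 and 8 higher at an unadjusted p below 0.05. In the pooled test DESeq2 called 5 and 7 of these lists and limma voom 1 and 2. Of the genes named here, HSPD1, TPI1, ENO2, PSMB1 and PSMC6 were lost in 10, 4, 9, 8 and 7 of the 24 leave-one-out fits. Among the lists where edgeR called 0, unadjusted p below 0.05 was met by 4 of 24 selenoprotein genes, 5 of 19 of fatty acid synthesis, 1 of 27 PPAR targets, 8 of 44 respiratory chain genes, 0 of 13 mitochondrially encoded mRNAs and 0 of 17 interferon response genes. DESeq2 called 1, 1, 0, 3, 0 and 0 of these and limma voom 0, 1, 0, 0, 0 and 0.

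The RSL3 effect depended on the background for 877 genes (5.46% of those tested). Of these, 333 were higher with RSL3 against DMSO and lower against CLA18:2, 162 were the reverse, and 382 had the same sign in both. Only 140 of the 877 were among the 554 pooled calls. SQSTM1, the autophagy receptor p62, had the smallest p (adjusted p = 1.8e-08). SQSTM1 had 359.7, 345, 343 and 360.0 CPM in RSL3 libraries, against 261, 272, 268 and 245 CPM in DMSO libraries. With LA, SQSTM1 had 486, 506, 427 and 426 CPM in RSL3+LA libraries, against 400.1, 383, 421 and 423 CPM in LA libraries. With CLA18:2, SQSTM1 had 1289.8, 1288, 1319 and 1316 CPM in RSL3+CLA18:2 libraries, against 1937, 1752, 1739 and 1705 CPM in CLA18:2 libraries. All RSL3 and RSL3+LA libraries lay above their matches and all RSL3+CLA18:2 libraries below theirs. The changes were 0.43 ± 0.05, 0.18 ± 0.05 and -0.45 ± 0.05, and the pooled change was 0.05 ± 0.07.

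Further genes with a small p in that test were higher with RSL3 against DMSO and lower against CLA18:2, and with LA they varied. HSPA5, the main chaperone of the endoplasmic reticulum, changed by 0.16 ± 0.04 against DMSO, -0.02 ± 0.04 against LA and -0.45 ± 0.04 against CLA18:2 (RSL3-by-background adjusted p = 1.8e-08). HSPA5 lay at 1176 to 1233 CPM with RSL3 against 1050.1 to 1099 CPM in DMSO, at 1250.0 to 1400.0 CPM with RSL3+LA against 1300.1 to 1413 CPM with LA, and at 1955 to 2048 CPM with RSL3+CLA18:2 against 2645 to 2798 CPM with CLA18:2. FTL, the ferritin light chain, changed by 0.34 ± 0.05, 0.20 ± 0.05 and -0.32 ± 0.05 (RSL3-by-background adjusted p = 4.2e-07). FTL lay at 701 to 825 CPM with RSL3 against 569 to 592 CPM in DMSO, at 936 to 1009.6 CPM with RSL3+LA against 834 to 892 CPM with LA, and at 1577 to 1612 CPM with RSL3+CLA18:2 against 1918 to 2219.7 CPM with CLA18:2. SLC7A11, the cystine importer, changed by 0.93 ± 0.09, 0.17 ± 0.09 and -0.30 ± 0.08 (adjusted p = 5.6e-07), and its groups overlapped with LA and with CLA18:2. DDIT4, an inhibitor of mTORC1, changed by 1.57 ± 0.16, -0.03 ± 0.16 and -0.70 ± 0.15 (adjusted p = 4.2e-07). HSPA6, a heat shock gene whose paralogs may share its reads, changed by 1.98 ± 0.19, 0.66 ± 0.21 and -0.98 ± 0.17 (adjusted p = 5.2e-08). CHAC1, TXNRD1, OSGIN1, DDIT3, CXCL8 and GDF15 also passed that test but not the pooled test. Their changes against DMSO were 0.55, 0.30, 0.67, 0.34, 1.05 and 0.14 (TXNRD1, OSGIN1 and CXCL8 passed). Against LA they were -0.10, 0.11, 0.42, 0.09, 0.12 and 0.03 (OSGIN1 passed). Against CLA18:2 they were -0.60, -0.14, -0.16, -1.11, -0.32 and -0.42 (all but OSGIN1 passed). SRXN1 passed neither test, with a pooled change of -0.09 ± 0.13 (adjusted p = 0.77).

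Of the 35 NRF2 targets, 14 passed the RSL3-by-background test (5.46% of all genes did). The list had 10 higher against DMSO, 2 against LA, and 2 higher with 8 lower against CLA18:2, and its medians were 0.16, 0.12 and -0.11. Of all 16050 genes, 31 were higher against DMSO, 8 against LA, and 1151 higher and 1243 lower against CLA18:2. Of 22 genes of the unfolded protein response 11 passed, with 1 higher against DMSO and 12 lower against CLA18:2, and medians of 0.07, -0.03 and -0.15. The pooled edgeR test called 0 of these 22, with 3 lower at an unadjusted p below 0.05, while DESeq2 called 1 and limma voom 0. In either direction, 2890 of all 16050 genes met that unadjusted p. Of 31 integrated stress response genes 13 passed the RSL3-by-background test. In that list 3 were higher against DMSO, and 3 higher and 12 lower against CLA18:2, while in the pooled test edgeR called ATF3 and PPP1R15A, DESeq2 3 genes and limma voom 2. Without RSL3+CLA18:2 libraries 3 and 4 the lower counts against CLA18:2 were 6, 9 and 11 for the 3 lists. Of all 16747 genes in that fit, 982 were lower.

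**Figure D4:**
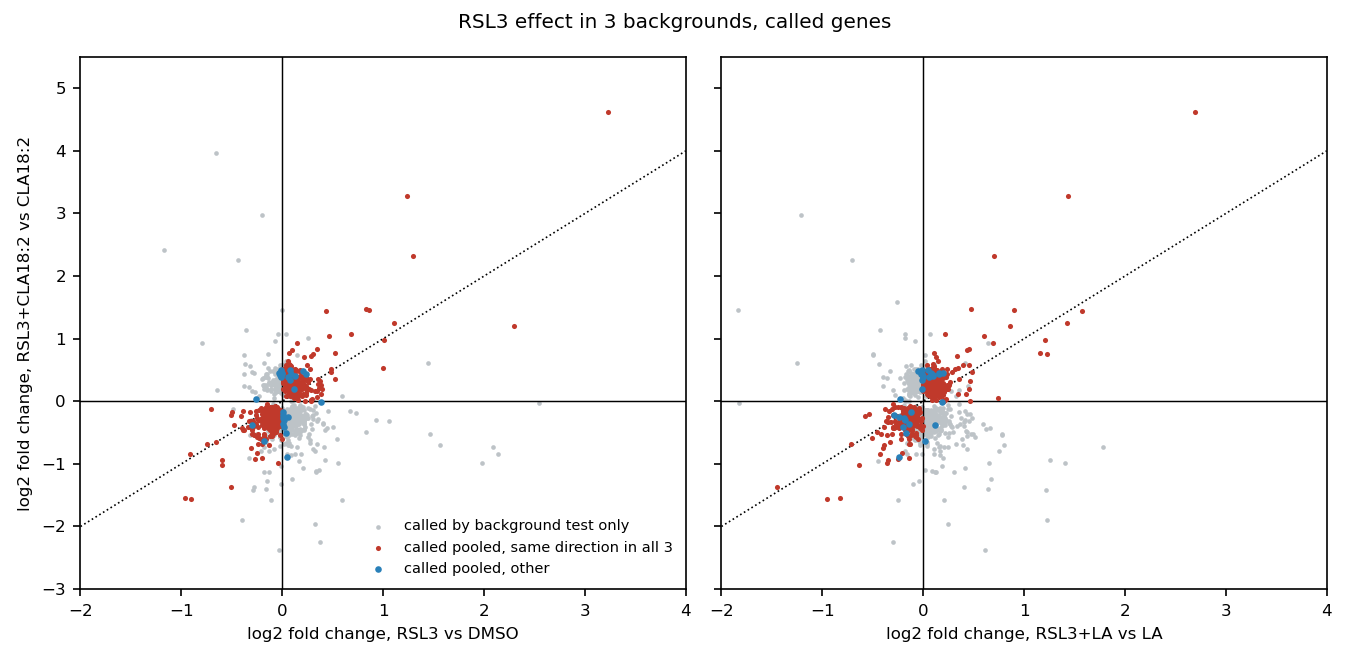
Log2 fold change of RSL3+CLA18:2 against CLA18:2 (vertical) plotted on RSL3 against DMSO (left) and RSL3+LA against LA (right), for genes called in the pooled test or the RSL3-by-background test. The dotted line marks equal change. Pooled calls of the same direction in all 3 backgrounds fill 2 opposite quadrants because they were chosen by sign. Of these 525, chosen by a test on the same libraries, 424 are largest with CLA18:2. In the 2 panels, 6 and 7 genes lie outside the axes.

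**Figure D5:**
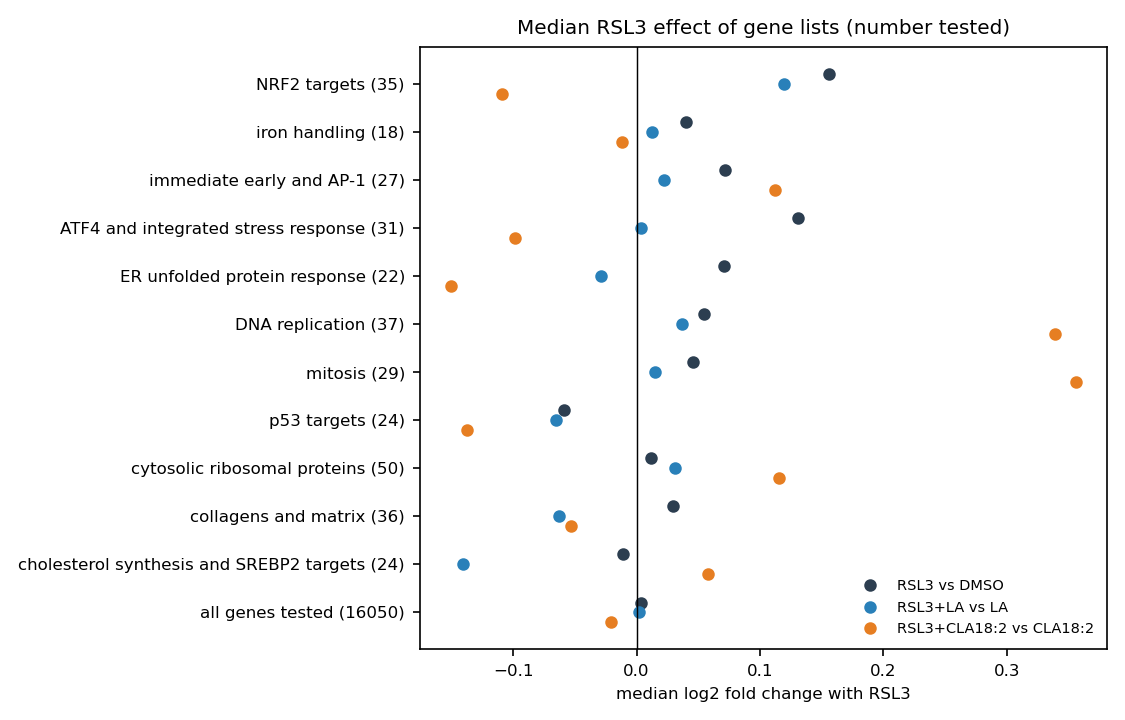
Median log2 fold change with RSL3 of 11 gene lists and of all genes tested, in each background, with the number of genes tested in brackets. DNA replication and mitosis reach 0.34 and 0.36 with CLA18:2 against 0.02 to 0.05 in the other backgrounds, and NRF2 targets change sign.

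To see how far a change seen in a pair of backgrounds carried over to the third, genes were called in each pair and their sign was read in the libraries left out. Genes called with LA and CLA18:2 had the same sign against DMSO for 371 of 547 (67.8%), while the signs matched for 53.6% of all genes. Genes called without fatty acid and with CLA18:2 kept their sign with LA for 420 of 615 (68.3%, against 54.1% of all genes). Genes called without fatty acid and with LA kept it with CLA18:2 for 39 of 67 (58.2%, against 55.1% of all genes). These 67 were called among the 16050 genes kept over all 24 libraries. The 61 calls given above without the CLA18:2 background came from a fit with its own filter, which kept 15530 genes. At an adjusted p below 0.01 the shares were 73.0% of 63, 85.7% of 84 and 52.2% of 23.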

How the data were processed

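The deposited files hold raw gene counts per library, which the authors made from total RNA. The submitters' processing notes name hg38 as the build and list featureCounts, HISAT, DESeq2 and SAMtools; versions, annotation and strand setting are not given in the sources used here. Sample labels write the fatty acid doses in mM and the design text in µM, and µM is used here. All count columns were matched to a sample.

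Genes were kept with edgeR's default filter on the 6 groups (16050 of 60286, 99.9% of counts), scaled by TMM and fitted with edgeR 4.0.16 in R 4.3.3. The pooled effect is the RSL3 term of a model with background as a block (20 residual degrees of freedom). Single backgrounds and the RSL3-by-background test came from a model with 1 mean per group. Tests were quasi-likelihood F tests with Benjamini-Hochberg adjustment over all genes at 0.05. SE is the log2 fold change over the square root of F, and intervals are at 95%. Other scaling, filters and tests (DESeq2 1.42.0, limma 3.58.1) were tried. Figures used Python 3.11.15 and matplotlib 3.10.9, and positions GENCODE 29 on GRCh38, where 83 of 85 genes matched once. RefSeq promoters were found for 13 of 16 genes looked up. Library measures were compared by exact permutation over libraries, and detected genes were counted after thinning to 16226270 counts.

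Named genes were 24 fixed genes, the 10 largest changes each way among genes of the same sign in all backgrounds with mean CPM of at least 2, the 6 smallest RSL3-by-background p, up to 4 called members per list, and the 5 smallest pooled p each way. Called list members beyond these, and genes found through the settings or the overlap count, were named after their values were seen. The members and the 28 lists were chosen with earlier results of these data known. No replicate block was used in the main fit, since 0 of 12 residual correlations of same-numbered libraries exceeded 0.1 (-0.0404 to 0.0470). Low correlations over all genes cannot exclude that libraries were prepared in pairs. A replicate block within each background gave 128 pooled calls. Replicate pairs differed more than sampling noise (chi-square per degree of freedom 2.35 to 26.2 in 36 pairs). On simulated data for the pooled effect (16050 genes, 50 changed at each fold), the test recovered 20% of genes changed 1.1-fold, 68% of those changed 1.25-fold, 98% for 1.5-fold and 100% for 2-fold changes. It made 5 false calls among 15800 unchanged genes. The simulation was a single draw and gave each gene the same spread in all 6 groups. In the real groups the biological coefficient of variation ran from 4.49% in DMSO to 15.1% in RSL3+CLA18:2. The simulated recovery and false calls therefore do not give the rates in these data.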

Additional observations from a re-analysis of the deposited data

Results flagged for a closer look

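Libraries far from the rest of their group of 4 were seen in 9 of 96 groups of values examined, where chance flags about 1 in 20. GPX4 stood low in RSL3+LA replicate 3 (75.8 CPM, others 90.1 to 92.7) and in LA replicate 3 (82.0 CPM, others 88.1 to 89.1). HMOX1 stood high in RSL3 replicate 4 (156 CPM, others 124 to 127). HRAS stood high in LA replicate 2 (10.8 CPM, others 2.98 to 4.05) and in CLA18:2 replicate 1 (11.6 CPM, others 2.40 to 2.92). ACTBL2 stood high in RSL3+LA replicate 4 (4.88 CPM, others 2.79 to 3.03), and PAX9 low in CLA18:2 replicate 4 (4.29 CPM, others 4.70 to 4.76). The share of mitochondrially encoded mRNAs was 0.548% in RSL3 replicate 4 (others 1.470% to 1.498%) and 1.68% in RSL3+CLA18:2 replicate 3 (others 0.263% to 0.313%).

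The response to RSL3 differed between backgrounds for 13 genes among those given in every library or in every setting and those with the smallest p of that test. By edgeR's quasi-likelihood test of the difference itself, adjusted p was 1.84e-08 for SQSTM1 and HSPA5, 5.18e-08 for HSPA6, and 4.22e-07 for FOSB, FTL and DDIT4. It was 1.04e-06 for HMOX1, 1.94e-05 for ATF3, 0.00113 for FOS, 0.0133 for YPEL2, 0.0158 for EGR1, 0.0163 for SMAD3 and 0.0427 for FERMT1. FOS, FOSB, HMOX1, ATF3, EGR1, FERMT1, SMAD3 and YPEL2 had 1 sign in all 3 backgrounds, while SQSTM1, FTL, HSPA6, DDIT4 and HSPA5 were higher with RSL3 against DMSO and lower against CLA18:2.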

How the results depend on the processing

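Of 554 pooled calls, 214 were kept in all 24 leave-one-out fits and 15 in all 39 settings. The pooled count was 861 with DESeq2, 286 with limma voom (277 of the same direction), 1094 with 1 mean per group (840 of the same direction) and 858 with all 28 libraries. With no low-count filter it was 829, split 408 higher and 421 lower. Chosen after seeing the data, leaving out RSL3+CLA18:2 libraries 3 and 4 gave 143 (141 of the same direction). Leaving out the CLA18:2 background gave 61. RSL3 against DMSO gave 78 calls with DESeq2, 107 with limma voom and 150 with no filter, and RSL3+LA against LA gave 39 with DESeq2 and 241 with no filter, where 10 genes passed in every background. The 8 libraries alone gave 1346 calls for RSL3+CLA18:2 against CLA18:2. The causes were not tested.

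With a replicate block within each background the pooled count was 128, each of the same direction, and RSL3+LA against LA gave 6; the replicate block over all backgrounds gave 520 (493 of the same direction). Of 24 libraries, 2 correlated best with their own number. Leave-one-out fits gave 243 to 671 pooled calls, 240 to 630 of the same direction, 23 to 44 for RSL3 against DMSO, 4 to 12 for RSL3+LA against LA, 1833 to 2438 for RSL3+CLA18:2 against CLA18:2, 3 to 4 genes in every background and 635 to 888 by background. The held-out shares ranged over 61.9% to 71.7% without fatty acid, 62.4% to 78.9% with LA and 51.2% to 63.0% with CLA18:2, and at a threshold of 0.01 were 73.0% and 85.7% for the first and second. Of 5163 values for single genes and gene lists, 4773 stayed on their side of the threshold, 37 of them with a change of sign of an uncalled value, 351 lost a call and 38 gained one, with no called value reversed. With 1 list, the respiratory chain, the count became 1 under DESeq2 size factors. In the simulation, which gave each gene the same spread in all groups, 1.1-fold changes were mostly missed (20% recovered).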
